A study of Bos grunniens with 12 samples.

Results

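The rows of the deposited expression table whose gene symbol names a cadherin or a protocadherin are described here. They were chosen by symbol alone: CDH followed by a digit, PCDH, DSC, DSG, CELSR, or FAT followed by a digit, with CDH2 and CDH5 left out. The rule found 108 of the 20953 rows, under 59 symbols. The values are from the input libraries (sequenced before m6A immunoprecipitation) of testes from yaks of 2 ages. The 18M group held 3 yaks of 1.5 years (18 months), whose testes were taken by castration, and the 5Y group held 3 yaks of 5 years, whose testes were taken at slaughter, per the labels. No treatment or genotype separated the groups, and age and the way of collection cannot be told apart. Ages follow the sample titles and column names. A separate field of the record, for developmental stage, names the other stage for each sample, and the record and the study's methods use the letters M and Y for opposite ages. Older and younger below follow the titles, and every direction given would turn if the titles were exchanged. An immunoprecipitated library was made from each testis as well, 12 libraries in all, and from these only the table of differential peaks between the ages was used.

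Cadherins are membrane proteins that bind a cadherin of the same kind on the neighbouring cell in a calcium-dependent way. Classical cadherins connect to actin through catenins, and desmosomal cadherins (desmogleins and desmocollins) connect to intermediate filaments through plakoglobin, plakophilins and desmoplakin. Protocadherins lack the catenin-binding tail, and the clustered ones are encoded in tandem arrays (alpha, beta and gamma) and are best known from neurons. The CELSR and FAT proteins are very large cadherins of planar cell polarity. In the testis, cadherin contacts hold Sertoli cells to each other and to germ cells, and they are taken apart and rebuilt as germ cells move towards the lumen.

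The symbols were checked against the Gene Ontology (GO) terms that the same table gives each row. Of the 59 symbols, 37 stood on 1 row and 22 on several. The term for homophilic adhesion through plasma membrane adhesion molecules, called the adhesion term below, was on 64 of the 108 rows, and 63 of these also had calcium ion binding. It was on 43 of the 59 rows that were the first in the table to carry their symbol, and on 21 of the 49 further rows. Of the further rows, 25 were clustered protocadherins, and 20 of these had the term; of the 24 further rows elsewhere, 1 had it. A further row is therefore often not annotated as a cadherin: the fourth PCDH17 row, for example, had actin binding, spermatogenesis and cadherin binding, and the second PCDH18 row had behavioral fear response and extracellular region. The first row need not have the term either, since 14 first rows had other GO terms only and 2 had none. Of the 59 symbols, 45 matched exactly 1 gene in RefSeq (assembly Bosgru_T2T1.0), and none matched several. Which gene a row without the adhesion term stands for was not tested, and most such rows named below are marked.

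The FPKM (read fragments divided by transcript length in kilobases and by library size) of a library summed to between 116187 and 139921, and the table does not say how many fragments a value rests on. The libraries of the 18M group were alike (Pearson r of log2 values 0.952 to 0.958 over the genes tested), while 5Y replicate 1 stood farthest from them (0.817 to 0.837) and 5Y replicate 2 nearest (0.942 to 0.947). Defining markers of elongating spermatids were present at both labelled ages and higher in the 18M libraries, which the titles place at the age the record calls before sexual maturity. Whether samples were exchanged was not tested, since no group was set from values. The summed FPKM of the 4 found in the table (of 8 listed) was 1154 to 1195 in the 18M group and 263, 849 and 731 in 5Y replicates 1, 2 and 3, and all 4 were lower in the 5Y group at an unadjusted p under 0.05. The Sertoli cell markers (5 found of 7) summed to 71.9 to 83.9 in the 18M group and to 250, 104 and 130 in the 5Y group, and all 5 were higher in it. The markers of peritubular and stromal cells (6 found of 7) summed to 22.4 to 23.3 and to 50.7, 29.5 and 44.7. All 6 were higher in the 5Y group, 5 of them at an unadjusted p under 0.05. Keratinocyte markers summed to at most 0.444 FPKM in any library, with KRT15 at 0, and no gene of this list was tested.

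Most cadherin rows were low. Of the 108 rows, 20 were at 0 in every library, 56 more had a mean under the limit of 0.5 FPKM that was set for a test, and 32 were tested. These were 29.6% of the members, against 59.4% of all rows of the table. A mean of at least 1 FPKM was reached by 19 rows and one of at least 5 FPKM by 4. Together the members held 0.0755% to 0.104% of the FPKM of a library, and those with the adhesion term held 0.0265% to 0.0286%. The share of the members with the term thus varied little between libraries. The rows at 0 throughout were 12 clustered protocadherins, 3 other protocadherins, DSG4, both rows of CDH16 (a kidney cadherin), the second CDH23 row and the third FAT4 row.

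**Figure D1:**
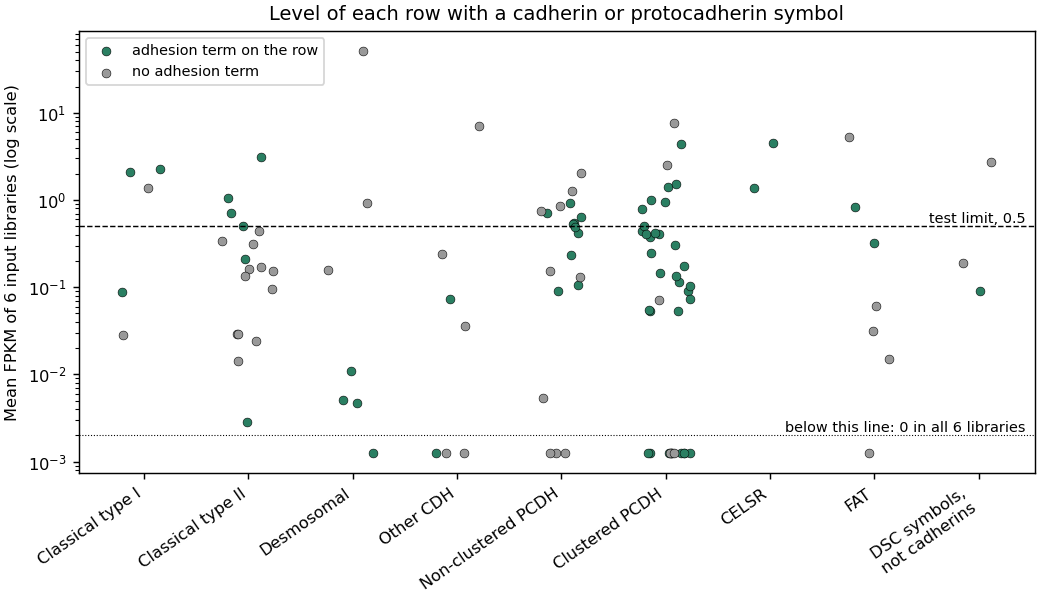
Mean FPKM over the 6 input libraries (log scale) of each of the 108 rows, grouped by subfamily; each point is a row, green with the adhesion term and grey without it, and the dashed line is the test limit of 0.5 FPKM. The 4 rows above 5 FPKM (the second DSC2 row, the fourth PCDHGB5 row, CDH13 and FAT1) are all grey, and the points under the dotted line are the 20 rows at 0.

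The 4 rows with the highest level all lacked the adhesion term. The second DSC2 row (ENSBGRG00000023902, no GO term) was at 71.2, 54.6 and 47.1 FPKM in the 18M libraries and at 48.5, 56.0 and 27.3 FPKM in the 5Y libraries, which was 28% to 49.5% of the FPKM of all members in a library. The first DSC2 row (ENSBGRG00000023388, desmocollin 2 by its symbol, also without the adhesion term) was between 0.0433 and 0.288 FPKM. The fourth PCDHGB5 row (actin and profilin binding) had a mean of 7.70 FPKM, CDH13 of 7.04 and FAT1 of 5.30. Among rows with the adhesion term, CELSR2 (mean 4.47 FPKM), PCDHB1 (4.36) and CDH11 (3.16) were the highest. CDH1, E-cadherin of epithelia, was at 0.0166 to 0.183 FPKM in the 6 libraries.

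The members were then compared between the ages, which asks whether cadherin transcripts differ between the testes of younger and older yaks. Differences are given as 5Y minus 18M on log2(FPKM + 0.1), with the standard error (SE) of the limma fit across 12437 genes. Single rows are given with their adjusted p (two-sided, Benjamini-Hochberg over all genes tested), and an unadjusted p under 0.05 is used as a looser limit for counting. A difference on this scale understates that of a low gene. The data are of whole testis, where fewer cells of a type and less RNA per cell cannot be told apart. Of the 32 tested members, 1 passed an adjusted p of 0.05, where 0.0322% of all genes did: the second PCDH17 row, which has no GO term. Its mean was 1.72 FPKM in the 18M group and 0 in the 5Y group, so it met the limit of 0.5 FPKM through the 18M group alone. Both PCDH18 rows met this limit through the 5Y group alone, and the fourth PCDH17 row through the 18M group alone. A call on such a row is no independent evidence of a difference. No first row and no row with the adhesion term passed, and the smallest adjusted p among either was 0.154. At an unadjusted p under 0.05, 10 of 32 members were called, where 25.1% of all genes were. Of these, 6 were higher in the 5Y group (background 14.2%) and 4 were lower (background 10.9%). Of the 20 tested rows with the adhesion term, 2 were higher (CDH3 and PCDH18) and 2 lower (CDH15 and FAT4). The libraries of the ages did not overlap in 13 members, where this was so in 33.7% of all genes, with 6 higher (19.8%) and 7 lower (13.9%) in the 5Y group. The median difference was -0.05 over the tested members, -0.13 over those with the adhesion term and 0.04 over all genes tested. The unadjusted counts and the medians were close to those of all genes and are no result about cadherins as a group.

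A single library moved these counts. Without 5Y replicate 2, which stood nearest to the 18M group, 6 members passed the adjusted p (both PCDH18 rows, the second and the fourth PCDH17 row, FAT1 and CDH15), and so did 19.3% of all genes. Without any of the other 5Y libraries or of the 18M libraries, at most 1 did.

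**Figure D2:**
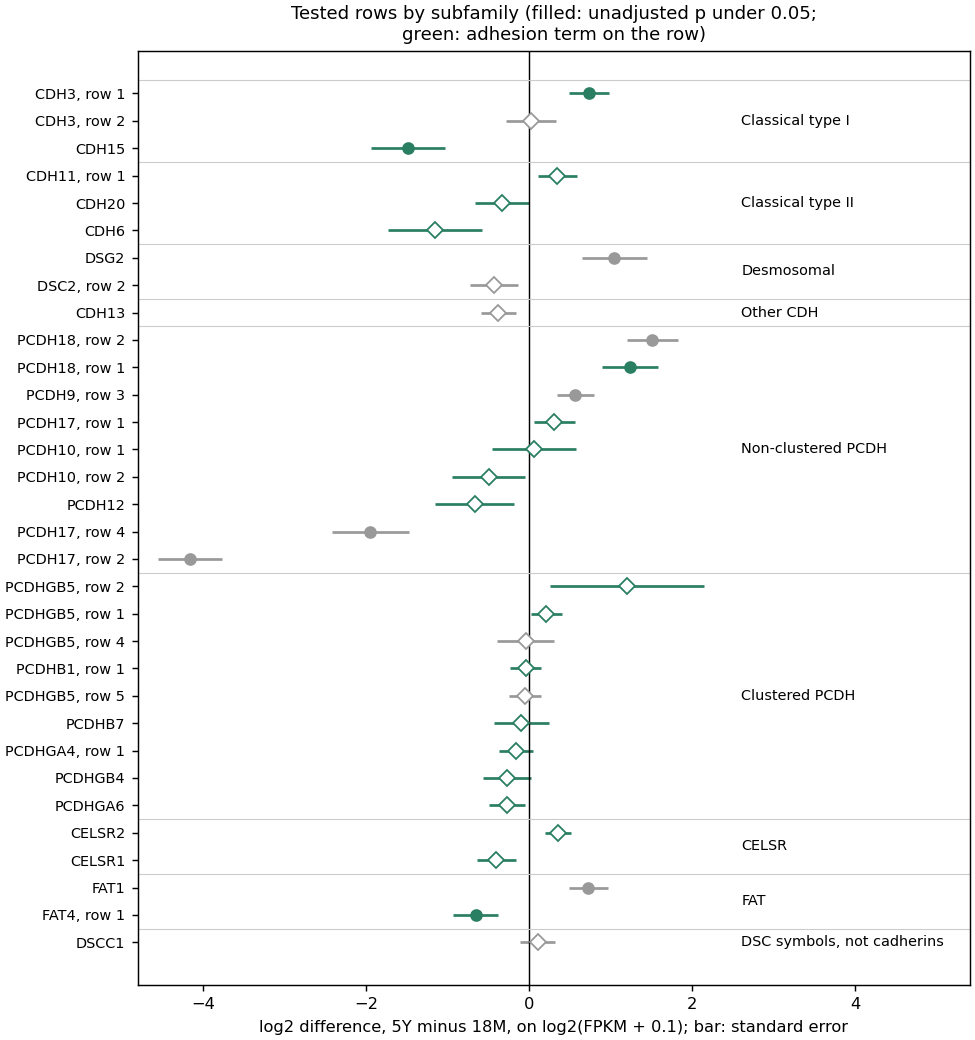
Difference between the ages (5Y minus 18M, on log2(FPKM + 0.1), bars are the SE) of the 32 tested rows by subfamily; filled points have an unadjusted p under 0.05 and green marks the adhesion term. Filled points lie on both sides of 0 (6 higher and 4 lower in the 5Y group); the place of the second PCDH17 row, which is listed at 0 in every 5Y library, depends on the added 0.1.

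Classical type I cadherins held the lowest difference of any tested row with the adhesion term, and the 2 called rows lay on opposite sides of 0. CDH15, or M-cadherin, is known from skeletal muscle and its precursors (ENSBGRG00000026871). It was at 2.95, 3.06 and 3.91 FPKM in the 18M libraries and at 0.535, 2.29 and 1.05 FPKM in the 5Y libraries. All 3 older animals were below all 3 younger ones, and the gap was widest for 5Y replicate 1. The difference was -1.49 (SE 0.45, adjusted p = 0.154). It lay between -1.98 and -1.03 with any library left out, and it stayed within the unadjusted limit in all 6 fits. Without 5Y replicate 2 its adjusted p was 0.0201. The sum of the elongating spermatid markers was also lower in every 5Y library than in any 18M library, and lowest in 5Y replicate 1. The part of these markers in the result was not tested.

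CDH3, or P-cadherin, of placenta and other epithelia, went the other way (first row, ENSBGRG00000014173). It was at 1.64, 1.79 and 1.18 FPKM in the 18M libraries and at 3.38, 2.09 and 2.44 FPKM in the 5Y libraries. The ages did not overlap, and 5Y replicate 1, which also had the highest sum of Sertoli and stromal markers, was the highest. The difference was 0.73 (SE 0.25, adjusted p = 0.163). It no longer met the unadjusted limit without 5Y replicate 1 (0.55, adjusted p = 0.288) or 18M replicate 3 (0.56, adjusted p = 0.382). The second CDH3 row, which has no GO term, differed by 0.02 (SE 0.31, adjusted p = 0.974).

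CDH2, N-cadherin of Sertoli and germ cells, is no member, and is given for scale. It was at 6.23, 5.95 and 5.88 FPKM in the 18M libraries and at 14.1, 6.25 and 9.86 FPKM in the 5Y libraries, and 5Y replicate 1 was again the highest. Its difference of 0.66 (SE 0.28) just missed the unadjusted limit (adjusted p = 0.199).

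**Figure D3:**
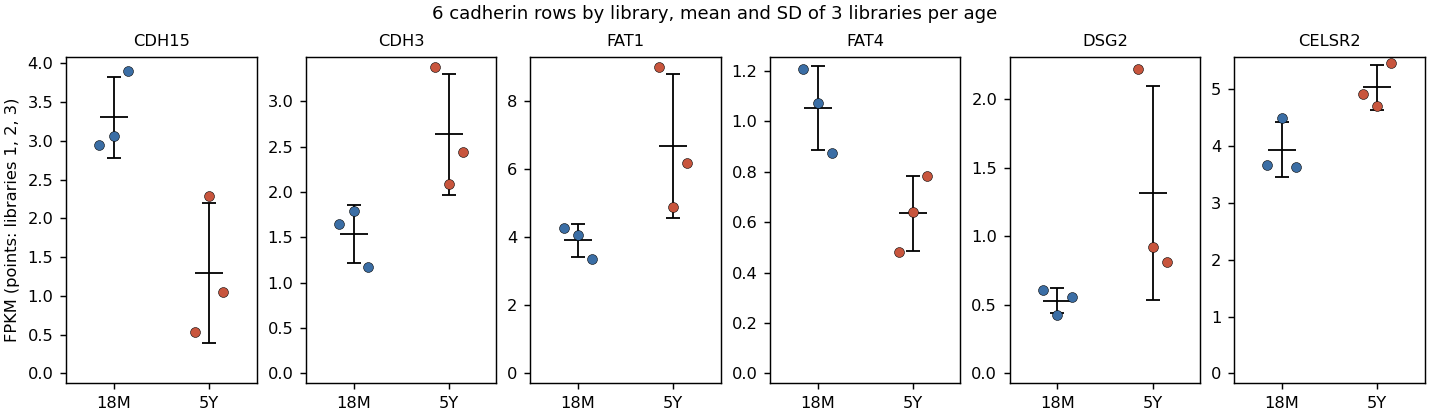
FPKM in each library (points, replicates 1, 2 and 3 from left to right) of 6 first rows, with the mean and SD of 3 libraries per age; each panel has its own axis. The rows were chosen for an unadjusted p under 0.05 or just above it. The first PCDH18 row also met this choice and is drawn with the PCDH17 rows. Such a choice favours rows without overlap, so the lack of overlap in every panel is no independent evidence of a difference. Of the 22 tested first rows, 10 do not overlap, and of all genes tested 33.7% do not. CDH15 and FAT4 are lower in the 5Y group, and 5Y replicate 1 is the highest library for CDH3, FAT1 and DSG2.

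Of 18 classical type II rows under 12 symbols, 3 were above the test limit. None of the 3 had an unadjusted p under 0.05, and their median difference was -0.34. CDH11, or OB-cadherin of mesenchymal cells, was at 2.33, 3.60 and 2.40 FPKM in the 18M libraries and at 4.03, 2.73 and 3.86 FPKM in the 5Y libraries. The libraries overlapped, and the difference was 0.35 (SE 0.24, 95% confidence interval -0.21 to 0.91, adjusted p = 0.373). CDH20 was at 1.06, 1.41 and 0.979 FPKM and at 0.703, 1.43 and 0.666 FPKM, with 5Y replicate 2 at the level of the highest younger animal. Its difference was -0.34 (SE 0.33, adjusted p = 0.525), and it was -0.66 (adjusted p = 0.114), within the unadjusted limit, without 5Y replicate 2. CDH6, known from the kidney, had the largest SE of the 3 on the log2 scale (0.58), with 1.54, 0.898 and 0.516 FPKM in the 18M libraries and 0.203, 0.863 and 0.212 FPKM in the 5Y libraries. Its interval reached from -2.52 to 0.21.

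Of the desmosomal cadherins, 5 of 7 rows were at a mean under 0.2 FPKM, among them DSG1, DSG3, DSG4 and DSC1, which are known from skin. DSG2, the desmoglein of simple epithelia and heart (ENSBGRG00000022705, no GO term), was at 0.611, 0.428 and 0.557 FPKM in the 18M libraries and at 2.22, 0.919 and 0.811 FPKM in the 5Y libraries. All older animals were above the younger ones, and 5Y replicate 1 was far above the rest. The difference was 1.04 (SE 0.40, adjusted p = 0.179). Without 5Y replicate 1 it was 0.62 (adjusted p = 0.31) and outside the unadjusted limit, as it was without 18M replicate 1 (1.13), 2 (0.92) or 3 (1.08). The second DSC2 row, described above for its level, differed by -0.43 (SE 0.30, adjusted p = 0.373).

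Among the other CDH symbols, 1 row was tested. CDH13, or T-cadherin, which is anchored by a lipid and has no cytoplasmic tail, was at 8.37, 7.54 and 7.80 FPKM in the 18M libraries and at 4.48, 7.87 and 6.21 FPKM in the 5Y libraries. The row (ENSBGRG00000018217) has an RNA-directed DNA polymerase term and no adhesion term; 10 first rows among the members and 3523 rows of the table carry such a polymerase term. The difference was -0.38 (SE 0.21, 95% confidence interval -0.89 to 0.12, adjusted p = 0.288), and it was -0.57 (adjusted p = 0.0704), within the unadjusted limit, without 5Y replicate 2. CDH23, by its symbol a cadherin of the tip links of hair cells, was the next highest of this group with a mean of 0.241 FPKM. Its row too has an RNA-directed DNA polymerase term and no adhesion term.

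Of the 9 tested rows of non-clustered protocadherins, 5 had an unadjusted p under 0.05, where 25.1% of all genes did. They held 5 of the 10 calls among the members, 3 higher and 2 lower in the 5Y group. Both PCDH18 rows and the second and the fourth PCDH17 row met the test limit through 1 age alone. The count is therefore no result about the subfamily. With 1 exception the called rows were further rows without the adhesion term. The exception was the first PCDH18 row (ENSBGRG00000004464), a delta-protocadherin. It was at 0.304, 0.290 and 0.245 FPKM in the 18M libraries and at 1.11, 0.626 and 0.711 FPKM in the 5Y libraries. Each older animal was at least at 0.626 FPKM and each younger one at most at 0.304. The difference was 1.23 (SE 0.35, adjusted p = 0.154). It lay between 1.02 (without 5Y replicate 1) and 1.38 (without 5Y replicate 2) with any library left out, within the unadjusted limit in all 6 fits. The row met the test limit through the 5Y group alone and was kept in each fit, so these fits are no independent evidence of a difference. The sums of the stromal and Sertoli markers were higher in the same libraries, and their part in the result was not tested.

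The second PCDH18 row (ENSBGRG00000004537), annotated to signal transduction and heparin binding and not to adhesion, was at 0.276, 0.272 and 0.507 FPKM in the 18M libraries and at 1.14, 1.08 and 1.24 FPKM in the 5Y libraries. The difference was 1.51 (SE 0.31, adjusted p = 0.154). Both rows under the symbol were higher in each older animal than in any younger one. Whether the second row stands for PCDH18 was not tested, so it is no second measure of that gene. The third PCDH9 row (ENSBGRG00000007284, RNA binding) was at 1.36, 1.49 and 1.97 FPKM and at 2.77, 1.86 and 2.65 FPKM. Its libraries overlapped, and the difference was 0.56 (SE 0.23, adjusted p = 0.189). It fell outside the unadjusted limit without 18M replicate 1 (0.46), 18M replicate 2 (0.52), 5Y replicate 1 (0.46) or 5Y replicate 3 (0.49). The first PCDH9 row, which has the adhesion term, was at 0.137 to 0.219 FPKM and at 0.198 to 0.419 FPKM, under the test limit.

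The symbol PCDH17, a delta-protocadherin best known from neurons, stood on 4 rows that differed from each other. The first row (ENSBGRG00000006468) is the only one with the adhesion term, and RefSeq has 1 PCDH17 gene. It was at 0.754, 1.06 and 0.666 FPKM in the 18M libraries and at 1.12, 0.962 and 1.01 FPKM in the 5Y libraries. The ages overlapped, and the difference was 0.31 (SE 0.25, 95% confidence interval -0.29 to 0.91, adjusted p = 0.45). No setting and no library left out took its p under 0.05.

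The second PCDH17 row (ENSBGRG00000006501, no GO term) was at 1.54, 1.44 and 2.18 FPKM in the 18M libraries and was listed at 0 in all 3 libraries of the 5Y group. Its adjusted p was 0.0395. No fold change is given, since the group is listed at 0. The adjusted p was 0.141 with 0.01 in place of 0.1 added before the log. It was 0.135 with each library scaled to the same sum of FPKM. That scaling raised the values of every library while 0.1 was still added. The added 0.1 thus became smaller relative to the values, so the scaling is no check separate from adding 0.01. The adjusted p was 0.204 with the replicate number as a block. It was 0.154, 0.261, 0.374 and 0.149 without 18M replicates 1, 2 and 3 and 5Y replicate 3. The third row (ENSBGRG00000006511, nucleus and cytoplasm) was at 0.0318 FPKM in 18M replicate 2 and at 0 in the other libraries. The fourth row (ENSBGRG00000006529, actin binding and spermatogenesis) was at 3.14, 0.962 and 2.24 FPKM in the 18M libraries and at 0.355, 0.676 and 0.293 FPKM in the 5Y libraries. Its difference was -1.95 (SE 0.47, adjusted p = 0.154), and it stayed within the unadjusted limit with any library left out. The fourth row met the test limit through the 18M group alone and was kept in each fit, so these fits are no independent evidence of a difference. The row with the adhesion term was thus somewhat higher in the 5Y group within the spread of the libraries, while the second and the fourth rows were lower in every 5Y library. The elongating spermatid markers, at most 849 FPKM in the 5Y group and at least 1154 in the 18M group, were lower in the same libraries, and their part in the result was not tested.

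**Figure D4:**
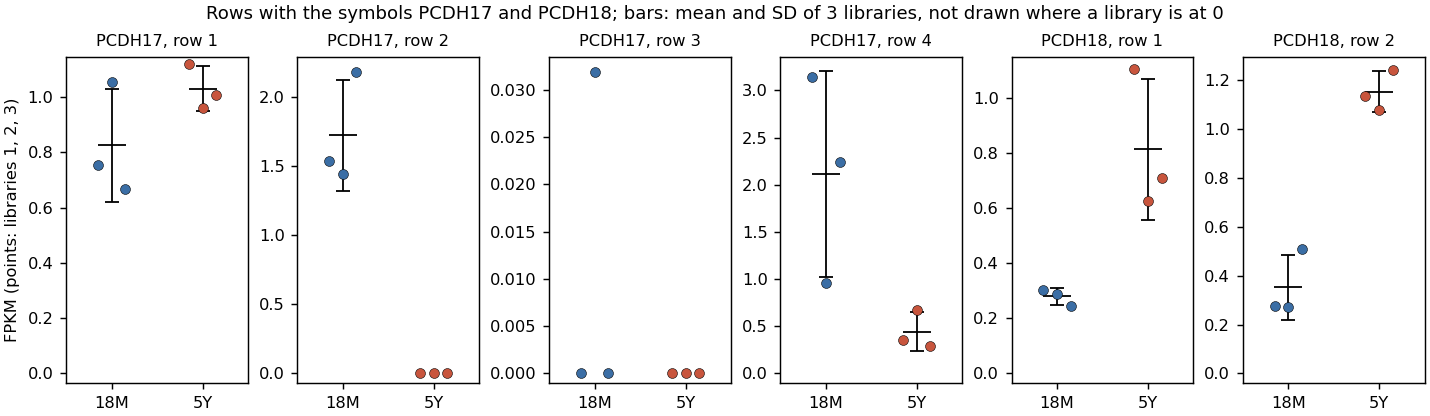
FPKM in each library (points, replicates 1, 2 and 3 from left to right) of the 4 rows with the symbol PCDH17 and the 2 with PCDH18, each panel with its own axis; bars are the mean and SD of 3 libraries and are left out for an age with a library at 0. Among the PCDH17 panels the ages overlap in row 1 and do not in rows 2 and 4, which are lower in the 5Y group, and both PCDH18 rows are higher in it.

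The remaining tested rows of this subfamily had intervals that spanned 0. PCDH12, a protocadherin of endothelial cells, differed by -0.67 (SE 0.48, adjusted p = 0.388). The 2 tested PCDH10 rows, both with the adhesion term, differed by 0.05 (SE 0.51) and -0.50 (SE 0.45).

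Clustered protocadherins were the largest subfamily, with 39 rows under 14 symbols, and none of the 9 rows above the test limit had an unadjusted p under 0.05. The arrays differed in level. None of the 15 alpha rows was tested, 8 were at 0 in every library, and the highest mean was 0.147 FPKM. The 10 beta rows with the adhesion term summed to between 6.44 and 8.51 FPKM in the 18M libraries and between 5.32 and 8.41 FPKM in the 5Y libraries. The 9 gamma rows with the term summed to between 5.25 and 7.82 FPKM and between 4.87 and 6.91 FPKM. The sums of the ages overlapped in both arrays, and both sums lay above that of the alpha rows (0.307 to 1.09 FPKM) in every library. Genes of the alpha and of the gamma array share their last exons, and how fragments on shared exons were counted is not given in the sources used here.

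PCDHB1 was the highest clustered row with the adhesion term, at 4.26, 4.17 and 4.77 FPKM in the 18M libraries and at 3.27, 4.91 and 4.79 FPKM in the 5Y libraries. Its difference was -0.05 (SE 0.19, 95% confidence interval -0.50 to 0.41). PCDHGA4 (first row, ENSBGRG00000024033) was at 0.978, 1.06 and 1.00 FPKM and at 0.880, 0.860 and 0.944 FPKM. Each older animal was below each younger one, but the difference of -0.16 (SE 0.21, 95% confidence interval -0.66 to 0.34) did not pass (adjusted p = 0.635). Across the 7 tested clustered rows with the term the differences ran from -0.28 to 1.20, and the smallest adjusted p was 0.427. The libraries did not overlap in 2 of the 7, both lower in the 5Y group. Of all genes tested, 33.7% did not overlap, and 13.9% did not and were lower, so this count is no result about the subfamily. The fourth PCDHGB5 row (ENSBGRG00000025182), without the term, was at 6.48, 5.17 and 12.3 FPKM and at 9.51, 5.42 and 7.29 FPKM, a difference of -0.05 (SE 0.35).

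The CELSR cadherins of planar cell polarity had both of their rows tested, and both have the adhesion term. CELSR2 (ENSBGRG00000001203) was at 3.66, 4.49 and 3.63 FPKM in the 18M libraries and at 4.91, 4.70 and 5.45 FPKM in the 5Y libraries. The ages did not overlap, with 18M replicate 2 just under 5Y replicate 2. The difference was 0.35 (SE 0.15, 95% confidence interval -0.01 to 0.71, adjusted p = 0.208). It came within the unadjusted limit with each library scaled to the same sum of FPKM (0.49, adjusted p = 0.146) and without 18M replicate 2 (0.45, adjusted p = 0.295). CELSR1 went the other way, at 1.54, 1.67 and 1.50 FPKM and at 1.21, 1.50 and 0.859 FPKM. Its difference was -0.41 (SE 0.24, adjusted p = 0.31), and it was -0.58 (adjusted p = 0.114), within the unadjusted limit, without 5Y replicate 2.

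The FAT cadherins had 1 row higher and 1 lower at an unadjusted p under 0.05. FAT1 (ENSBGRG00000015602, no GO term), a large cadherin that acts on the actin cytoskeleton, was at 4.28, 4.08 and 3.37 FPKM in the 18M libraries and at 9.01, 4.88 and 6.17 FPKM in the 5Y libraries. The ages did not overlap, and 5Y replicate 1 was the highest library, with 5Y replicate 2 just above the younger animals. The difference was 0.72 (SE 0.24, adjusted p = 0.16). It was 0.49 without 5Y replicate 1 and 0.92 without 5Y replicate 2, where the adjusted p was 0.0372, and it was outside the unadjusted limit without 18M replicate 3 (0.62). FAT4 (first row, ENSBGRG00000009618), which binds Dachsous cadherins across cells, was at 1.21, 1.07 and 0.875 FPKM and at 0.483, 0.641 and 0.781 FPKM. Each older animal was below each younger one. The difference was -0.66 (SE 0.28, adjusted p = 0.196). It stayed between -0.80 and -0.50 with a library left out, but met the unadjusted limit in 1 of these 6 fits, that without 5Y replicate 3.

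The rule also took in 3 symbols that begin with DSC and are no desmocollins. DSCC1, which acts in sister chromatid cohesion, had a mean of 2.72 FPKM and a difference of 0.10 (SE 0.21, adjusted p = 0.769). DSCAM and DSCAML1, adhesion molecules of the immunoglobulin type, had means of 0.192 and 0.0908 FPKM. The DSCC1 and DSCAM rows lack the adhesion term, and the DSCAML1 row has it.

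The 56 rows above 0 but under the test limit were fitted with all 18252 genes above 0 in any library, of which 20.2% had an unadjusted p under 0.05. This was so of 4 of the 56. CDH24 was at 0.0606, 0.176 and 0.0728 FPKM in the 18M libraries and at 0.345, 0.330 and 0.268 FPKM in the 5Y libraries (difference 1.07, adjusted p = 0.191). CDH7, a row without the adhesion term, was also higher in the 5Y group (1.23, adjusted p = 0.198). CDH26 (-0.77, adjusted p = 0.196) and the third PCDHGA4 row (-1.36, adjusted p = 0.233) were lower. These differences depend strongly on the added 0.1, as the values themselves are near it.

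The table of differential m6A peaks between the ages, in which the authors kept peaks at a MeTDiff p of up to 0.05 and a fold of 1.5 or more, placed 6 of its 1438 peaks on 3 members. This is 2.78% of the members, where 5.63% of all rows carry such a peak, and 9.38% of the tested members, where 9.29% of the genes tested do. N6-methyladenosine (m6A) is a methylation of adenosines within mRNA that is read out here from fragments bound by an antibody. Coordinates are on the LU_Bosgru_v3.0 assembly. CELSR2 lies on the plus strand of chromosome 3 from 38214139 to 38240461, and its peak from 38216665 to 38223706 (7042 bp) was annotated to exon 3 of 36. FAT1 lies on the plus strand of chromosome 28 from 39480234 to 39608094, and its peak from 39601407 to 39607545 (6139 bp) was annotated to exon 27 of 28, near the end of the gene. Widths are counted along the genome.

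PCDHGA4 carried the other 4 peaks, on chromosome 8. Its annotated gene runs on the plus strand from 56999381 to 57207978 and so spans 208598 bp of the gamma array. The peaks from 57046204 to 57046404 (201 bp) and from 57100293 to 57100842 (550 bp) were annotated to exon 1 of 4 of PCDHGA4. The peaks from 57067531 to 57067679 (149 bp) and from 57076182 to 57076331 (150 bp) were annotated to exon 2 of 3 of transcripts of other rows, PCDHGB4 and the first PCDHGB5 row, which lie within that span. The table gives neither a fold change nor a direction nor a value per animal, so no test between replicates was made. In the input libraries FAT1 was higher in the 5Y group at an unadjusted p under 0.05, while CELSR2 and PCDHGA4 were not.

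**Figure D5:**
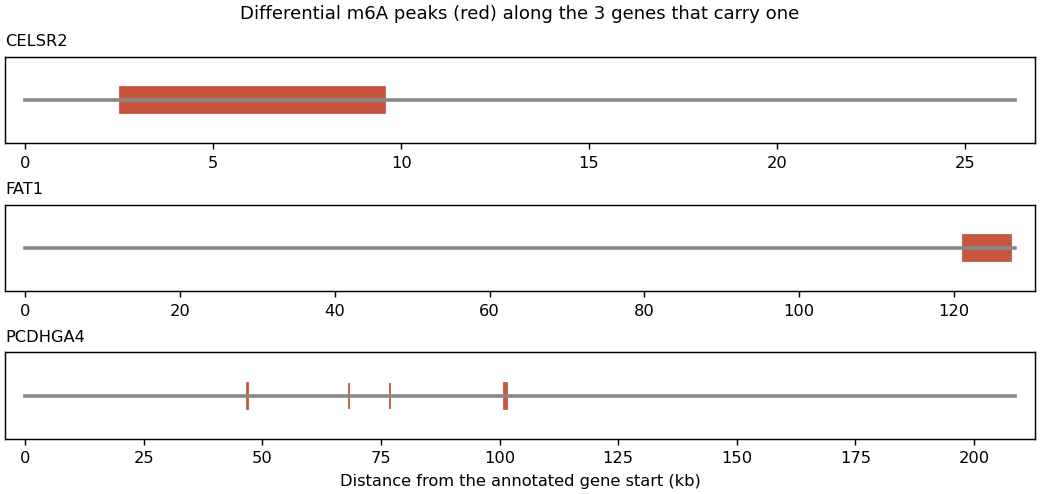
Differential m6A peaks (red) along the annotated span of the 3 member genes that carry any, in kb from the gene start; the scale differs between panels. The CELSR2 peak of 7042 bp lies in the early part of the gene, the FAT1 peak of 6139 bp at the end, and the 4 PCDHGA4 peaks, of at most 550 bp, lie before the middle of the gene.

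The genes that work with cadherins were taken from a list of 43 symbols (catenins, plakophilins, desmoplakin, nectins, planar polarity genes, Dachsous and related cadherins, and CDH2). Of these, 37 were in the table, 26 were tested, and 6 had an unadjusted p under 0.05, where 25.1% of all genes did: 4 higher and 2 lower in the 5Y group. None passed the adjusted p in limma (the smallest was 0.154), and their median difference was 0.12. The count was 11 without 5Y replicate 2 and 3 without 18M replicate 3. PKP2, the plakophilin 2 of desmosomes, was at 0.544, 0.398 and 0.406 FPKM in the 18M libraries and at 1.36, 0.849 and 1.26 FPKM in the 5Y libraries (1.18, SE 0.29, adjusted p = 0.154). Its 18M mean of 0.449 FPKM was under the test limit, which PKP2 met through the 5Y group alone. VCL, vinculin of the actin-bound junction, was at 6.08, 6.29 and 5.45 FPKM and at 13.0, 8.22 and 10.6 FPKM (0.81, SE 0.19, adjusted p = 0.154). CTNNAL1 (0.78, adjusted p = 0.154) and CTNNA1, the epithelial alpha-catenin (0.40, adjusted p = 0.189), were also higher in the 5Y group. All 4 were higher in each older animal than in any younger one, as were 19.8% of all genes tested. They were named for their p, so this is no independent evidence of a difference. For each, 5Y replicate 1 was the highest library.

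CTNNA3, the alpha-catenin best known from heart and testis, was lower in the 5Y group, at 2.08, 2.11 and 2.42 FPKM in the 18M libraries and at 0.414, 1.65 and 0.756 FPKM in the 5Y libraries (-1.33, SE 0.42, adjusted p = 0.157). NECTIN3, which joins spermatids to Sertoli cells, was at 41.9, 37.0 and 44.4 FPKM and at 19.2, 37.5 and 27.6 FPKM (-0.60, SE 0.25, adjusted p = 0.196). For both, 5Y replicate 1, with the lowest spermatid markers, was the lowest library, and the part of these markers in the result was not tested. CTNNB1 and CTNND1, the beta-catenin and p120-catenin that all classical cadherins bind, differed by 0.25 (adjusted p = 0.264) and 0.11 (adjusted p = 0.585). Differential m6A peaks lay on VANGL2 (in its 5′ and its 3′ untranslated region) and PRICKLE1, both of planar polarity, and on ARVCF, which binds the cadherin tail.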

How the data were processed

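Input libraries of 3 yaks of 1.5 years and 3 of 5 years were compared, grouped by their titles. Before deposit, the authors cleaned reads (Trimmomatic, and SortMeRNA against rRNA) and mapped them to the LU_Bosgru_v3.0 assembly with HISAT2 2.0.4 (version per the labels), keeping those with a single place. The deposited FPKM table has 1 value per gene and input library; the program that computed FPKM is not given in the sources used here. The authors called differential peaks with MeTDiff and annotated them with ChIPseeker; the deposited table gives positions and no score per animal. Peak lists of the single groups and the reads were not used here. No count of fragments could be recovered, so the depth behind a value is unknown, and a 0 is given without an upper limit.

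Log2(FPKM + 0.1) was fitted with limma 3.58.1 (lmFit and eBayes with a trend, R 4.3.3) for the 12437 genes with a mean of at least 0.5 FPKM, two-sided, with Benjamini-Hochberg adjustment over all of them. The fit was tested on simulated data with independent noise in each gene and library. At an adjusted p under 0.05 it called 21.5% of the genes with a log2 change of 1 and 77.5% of those with a change of 2. Shifts shared by a whole library were not simulated. With 3 libraries against 3, an exact permutation test cannot go below p = 0.1. Symbols repeat in the table; rows are numbered in table order. Python 3.11.15 with pandas 2.3.3, numpy 2.4.6 and matplotlib 3.10.9 did the rest.

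The members and lists were chosen with earlier results of these data known. Named are every PCDH17 row, members with an unadjusted p under 0.05 or a peak, the 2 highest rows per subfamily, and partner genes with such a p or a peak. Rows outside this rule (CDH1, CDH6, CDH7, CDH24, CDH26, PCDH10, PCDH12, rows at 0 or under the limit, CTNNB1 and CTNND1) were named after their values were seen. The marker lists were spermatogonia (0 of 5 tested with an unadjusted p under 0.05), spermatocytes (0 of 7), round spermatids (3 of 5, all lower in the 5Y group), elongating spermatids, Sertoli cells, Leydig cells (1 of 2, lower), peritubular and stromal cells, macrophages (1 higher and 1 lower of 4), endothelial cells (1 of 5, higher), erythroid cells (ALAS2 alone found, at 0), epithelium of rete and ducts (0 of 2), skin keratinocytes, and Schwann cells and nerve (2 of 2, lower). Alternatives were other pseudocounts, filters, scalings and eBayes settings, a replicate block, each library left out, and other choices among rows that share a symbol; the last were in part chosen after seeing the data.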

Additional observations from a re-analysis of the deposited data

How the results depend on the processing

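The count of members with an adjusted p under 0.05 (1, the second PCDH17 row) was 0 in limma with 0.01 added before the log, with a mean of at least 1 FPKM required, with libraries scaled to the same sum (TPM), with the identifier of the highest mean per symbol, with the first row per symbol, and with the adhesion rows alone. Members with an unadjusted p under 0.05, 6 higher and 4 lower in the 5Y group, numbered 6 and 4 with 0.01 added, 3 and 2 at a mean of at least 1 FPKM, 7 and 3 with TPM, 5 and 3 with the highest identifier, 4 and 2 with first rows, and 2 and 2 with adhesion rows. The 13 members whose libraries do not overlap were 7 at a mean of at least 1 FPKM, 23 with no filter and 8 with adhesion rows. The median difference of -0.05 was 0.07 with TPM, where the median of all genes moved from 0.04 to 0.17, and -0.13 with quantile normalization, -0.22 with the highest identifier and -0.13 with adhesion rows. The median of clustered protocadherins was 0.07 with TPM in place of -0.06. At a mean of at least 1 FPKM, which leaves 1 or 2 rows, the medians were -0.43 for desmosomal cadherins, -0.69 for non-clustered protocadherins and 0.72 for FAT. With peaks of at most 1000 bp, 1 member had a peak. Scaling to TPM raised the values while 0.1 was still added, so it also lowered the weight of the added 0.1. The cause of these moves was not tested, beyond the fewer rows that the filters and row choices leave.

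With a library left out, the adjusted count was 0 to 6, the members higher 3 to 6 and lower 3 to 8, the non-overlapping members 13 to 19, the median -0.16 to 0.01, and the partner genes 3 to 11. Medians of subfamilies were -0.20 to 0.25 for type I, -0.66 to -0.16 for type II, 0.04 to 0.58 for desmosomal cadherins, -0.57 to -0.17 for other CDH, -0.34 to 0.18 for non-clustered and -0.15 to 0.01 for clustered protocadherins, -0.09 to 0.04 for CELSR and -0.08 to 0.12 for FAT.

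With the replicate number as a block, the adjusted count was 0, with 5 members higher and 3 lower at an unadjusted p under 0.05. Deviations of same-numbered libraries correlated at -0.022, -0.091 and 0.007, and those of other pairs of libraries at -0.13 to 0.144. Whether same-numbered libraries share more than their number cannot be told from these values.

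Of 329 values of 21 single rows under other settings, 292 kept their direction and their side of an unadjusted p of 0.05, 24 lost that limit, 5 met it anew and 8 changed sign, all in rows near 0 that were outside the limit. These were PCDHB1 (-0.05; 0.08 with TPM, -0.15 to 0.14 with a library left out, above 0 without 18M replicate 3 or 5Y replicate 1), the fourth PCDHGB5 row (-0.05; 0.08 with TPM, -0.31 to 0.31, above 0 without 18M replicate 3 or 5Y replicate 2) and DSCC1 (0.10; -0.04 to 0.26, below 0 without 5Y replicate 1 or 18M replicate 2). With all libraries kept, the losses were the third PCDH9 row, FAT4 (-0.60 with TPM) and DSG2 (0.91 with quantile normalization). The unknown depth limits what low rows, most of the members, can show.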

Other observations

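Outside the member symbols, 10 rows had both the adhesion term and calcium ion binding. Of these, 3 were rows of CDH2 and CDH5, and CLSTN1 and CDHR1 are related cadherins. The other 5 were further rows under symbols of other kinds (TDRD3, CHORDC1, IP6K1, SLC26A6 and PABPC5). Of these 5 rows, 3 were tested. The fifth CHORDC1 row was at 2.61, 3.07 and 1.54 FPKM in the 18M libraries and at 1.22, 2.33 and 1.32 FPKM in the 5Y libraries (difference -0.54, adjusted p = 0.327). The second SLC26A6 row differed by -0.09 (adjusted p = 0.85). The third PABPC5 row was at 1.22, 1.14 and 0.884 FPKM and at 2.13, 1.24 and 1.70 FPKM, and its libraries did not overlap (difference 0.58, adjusted p = 0.208). Which genes these rows stand for was not tested.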
